A study of Mus musculus with 9 samples.

Results

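A set of 9 genes that restrain MAP kinase signalling was followed across age in sorted hair follicle stem cells of the mouse: the dual-specificity phosphatases Dusp1, Dusp2, Dusp4, Dusp5, Dusp6 and Dusp10 and the Sprouty genes Spry1, Spry2 and Spry4. They were chosen by gene symbol, and all 9 were found among the 37980 rows of the deposited expression table. RNA was sequenced from male C57BL/6J mice aged 3, 19 and 24 months, with no treatment or genetic change named in the labels, and each age had 3 libraries. The cells had been sorted from back and belly skin by high CD49f, the laminin receptor integrin alpha 6 of basal keratinocytes, together with CD34, which marks the bulge of the mouse follicle. Libraries are named by age and by the replicate numbers of their labels, which run from 1 to 3 at 3 and 19 months and from 2 to 4 at 24 months. The labels do not tie the libraries to separate mice, so a p-value here weighs an age difference against the spread between these libraries alone, which may be technical.

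In the classical MAP kinase pathway, a growth factor such as an FGF or EGF binds its receptor, and adapters then activate RAS, RAF, MEK and finally ERK, which enters the nucleus and switches on early genes. Some of the induced genes turn the signal down again: DUSP phosphatases remove the activating phosphates from ERK, p38 or JNK, and Sprouty proteins act upstream of them, between the receptor and RAF. Because ERK itself induces many of them, transcripts such as Dusp6, Spry2 and Spry4 are widely read as targets of FGF and ERK signalling. FGF signals are known to act on the follicle bulge in both directions, with Fgf18 holding its stem cells at rest and Fgf7 from the dermal papilla helping to start growth.

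Values are FPKM, a fragment number divided by transcript length and library size, so levels can be compared between genes per unit of length. Depth is unknown, since the table holds no counts. Differences between ages were tested with limma on log2(FPKM + 1), once on all 14275 rows that reached 1 FPKM in 3 or more libraries and once on the 11509 protein-coding rows among them, with Benjamini-Hochberg adjustment over each whole set and a threshold of 0.05. All log2 changes refer to log2(FPKM + 1), so those of low genes are too small, and their errors are standard errors from the protein-coding fit. The other errors are SDs over 3 libraries. A gene is said to rise or fall only where it passed the protein-coding fit, and the result of the fit of all rows is given with it. Besides the replicate numbers, the sample descriptions carry running numbers that are consecutive over the 19- and 24-month libraries and lower, after a gap, at 3 months. Whether this marks a batch is not said, and a batch of that kind could not be told apart from age in comparisons with 3 months. In bulk RNA, fewer cells of a type and less RNA per cell cannot be told apart either.

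All 9 genes of a bulge list were measured, and Cd34 lay between 403 and 632 FPKM in every library. In the protein-coding fit 3 of them passed in a comparison, and 0 in the fit of all rows: Sox9 (0.66, adjusted p = 0.0348) and Nfatc1 (0.78, adjusted p = 0.0264) rose at 19 against 3 months, and Lgr5 fell by 1.01 at 24 against 3 months (adjusted p = 0.00581). The Sox9 and Nfatc1 calls were lost in 5 and 4 of the 9 fits that left out 1 library, and the Lgr5 call in none. Among markers of other cells, the immune list summed to between 36.7 and 83.7 FPKM at 3 months, 28.9 and 65.3 at 19 months and 40.6 and 74.7 at 24 months, with Ptprc, the pan-leukocyte CD45, at no more than 0.620 and the macrophage lysozyme Lyz2 listed at 0 in 8 of the 9 libraries. Fcer1g, a receptor subunit of myeloid and mast cells in that list, measured 3.04 to 4.59, 1.07 to 1.76 and 4.73 to 7.40 FPKM at the 3 ages. It fell by 0.90 at 19 against 3 months (adjusted p = 0.0373, and 0.152 in the fit of all rows), held in 4 of the 9 fits that left out 1 library. It rose by 1.45 at 24 against 19 months (adjusted p = 0.00403, and 0.0923 in the fit of all rows), held in all 9. Cd74 averaged 33.6, 32.1 and 30.4 FPKM at the 3 ages, H2-Aa 7.15, 5.84 and 6.55, Cd3e 4.70, 2.78 and 6.94, and Cd3g 7.38, 4.02 and 8.51. None of these passed. Cd207 and Tyrobp stayed below 1 FPKM. The endothelial list stood at 11.8 to 14.2 FPKM at 3 months, 9.67 to 10.7 at 19 months and 5.63 to 7.24 at 24 months, with Cdh5, which defines endothelium, never above 0.0722. Pecam1 did not exceed 0.446 FPKM and Kdr 0.0912, so most of the sum came from Ramp2 and Egfl7. At 24 against 3 months Ramp2 fell by 0.88 (adjusted p = 0.00697, and 0.0334 in the fit of all rows), held in all 9 fits that left out 1 library. Egfl7 fell by 0.83 (adjusted p = 0.0219, and 0.0749 in the fit of all rows), held in 5 of those fits. The melanocyte list stood at 12.2 to 17.9 FPKM at 3 months, 6.54 to 8.45 at 19 months and 4.19 to 9.20 at 24 months. Only Tyrp1 passed in it, falling by 1.39 at 19 against 3 months (adjusted p = 0.0139, and 0.142 in the fit of all rows). It fell by 1.31 at 24 against 3 months (adjusted p = 0.0131, and 0.0900 in the fit of all rows). Tyrp1 reached 1 FPKM only at 3 months, at 1.23 to 3.57, so it was tested only through the age where it was high. The sebocyte list summed to between 246 and 318, 223 and 282, and 342 and 457 FPKM at the 3 ages. By the protein-coding fit 5 of its 6 genes were lower at both older ages than at 3 months (2 at 19 months and 1 at 24 months in the fit of all rows). The protein-coding fit called 0.964% and 2.34% of its rows lower in these comparisons. Of the 5, Soat1 reached 1 FPKM only at 3 months, at 2.19 to 4.85, so it was tested only through the age where it was high. It could be tested in 6 of the 9 fits that left out 1 library. The sixth, Mgst1, was higher at 24 against 3 months (0.79, adjusted p = 0.0123, and 0.0807 in the fit of all rows), a call lost without 24-month replicate 4 (0.0645). It makes up most of the sum, at 321 to 430 FPKM at 24 months. Of the 5 lower genes Elovl3 was lost in 4 such fits at 19 months and in 3 at 24 months. The list of differentiated epidermis summed to between 105 and 129, 83.0 and 102, and 88.4 and 182.5 FPKM at the 3 ages. The fibroblast list summed to between 5.99 and 8.755, 10 and 11.97, and 9.42 and 16.75 FPKM. The log2 change of the fibroblast gene Col1a2 was 0.71 at 19 against 3 months (adjusted p = 0.0528). No gene of these lists passed in either fit. The part of all these cells in the results below was not tested.

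Of the 9 genes 4 were well expressed, 3 were near the limit of testing and Dusp2 and Dusp4 were close to 0. At 3 months Spry2 led at 69.5 ± 18.4 FPKM, followed by Dusp6 and Dusp1, whose ranges overlapped, then Spry1, Dusp10, Spry4 and Dusp5. At 19 months the ranges of Dusp1, Spry2 and Dusp6 all touched their neighbour in that order, with Spry1 and Dusp10 below. At 24 months Dusp1 and Dusp6 overlapped at the top, Spry2 and Spry1 overlapped below them, and Dusp10 followed. Spry2 was thus the highest of the 9 at 3 months and lay below the ranges of Dusp1 and Dusp6 at 24 months.

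**Figure D1:**
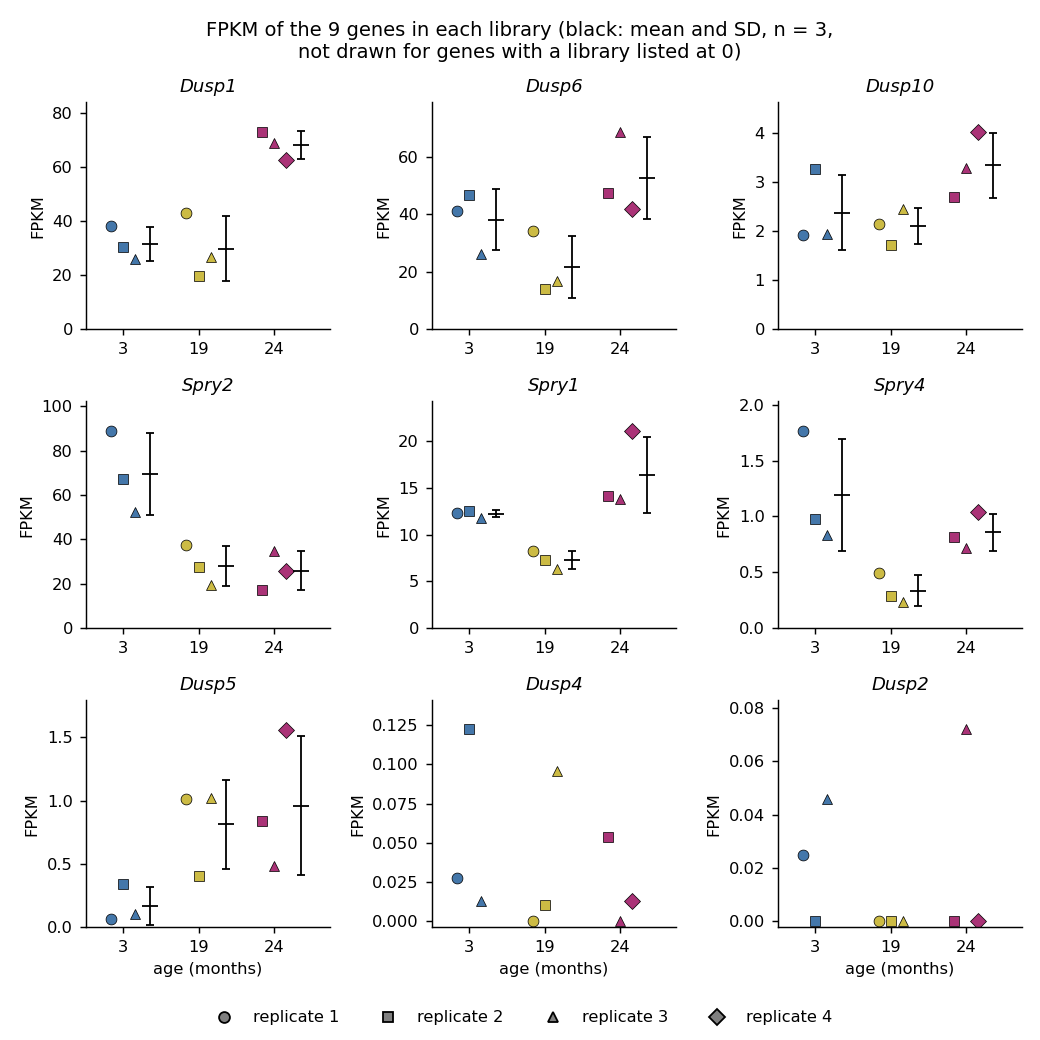
FPKM (vertical axis, linear, a scale of its own for each gene) of the 9 genes by age in months (horizontal axis), with 1 symbol per library shaped by its replicate number and black bars for the mean and SD over 3 libraries where no library was listed at 0. Dusp1 at 24 months and Spry2 at 3 months stood clear of both other ages, while Spry1 and Spry4 were lowest in all 3 libraries of 19 months.

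The sequence before the transcription start is printed for 3 of the genes in which 1 age stood clear of both others, chosen after their values were seen. Dusp1 was highest at 24 months, Dusp5 was higher in all older libraries, and Spry2 was higher at 3 months than in any older library. Spry1, whose ages did not overlap either, is not printed. Whether motif matches go with a difference between ages was not tested. The 250 bases before the start come from RefSeq on the build GRCm38.p6, which is another build than that of the table, and 7 of the 9 genes had an entry. They lie at chr17:26508473-26508722 on the minus strand for Dusp1, chr19:53528895-53529144 on the plus strand for Dusp5 and chr14:105896820-105897069 on the minus strand for Spry2. Capitals mark matches to sites of factors that respond to signalling: in Dusp1 a cAMP response element (CRE) and a shorter core of that element (the CRE core), and in Dusp5 a pair of adjacent CArG boxes, the binding motif of serum response factor, and a CRE core read on the other strand.
Dusp1: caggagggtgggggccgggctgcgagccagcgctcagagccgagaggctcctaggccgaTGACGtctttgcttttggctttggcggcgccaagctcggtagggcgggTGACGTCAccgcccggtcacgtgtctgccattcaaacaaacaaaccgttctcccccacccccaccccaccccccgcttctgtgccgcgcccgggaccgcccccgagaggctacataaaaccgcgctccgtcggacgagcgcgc
Dusp5: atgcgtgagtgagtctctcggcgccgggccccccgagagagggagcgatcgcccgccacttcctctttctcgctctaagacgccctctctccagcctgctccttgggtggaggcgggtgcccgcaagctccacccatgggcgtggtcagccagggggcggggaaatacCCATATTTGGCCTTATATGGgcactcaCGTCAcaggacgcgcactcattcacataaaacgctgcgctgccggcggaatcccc
Spry2: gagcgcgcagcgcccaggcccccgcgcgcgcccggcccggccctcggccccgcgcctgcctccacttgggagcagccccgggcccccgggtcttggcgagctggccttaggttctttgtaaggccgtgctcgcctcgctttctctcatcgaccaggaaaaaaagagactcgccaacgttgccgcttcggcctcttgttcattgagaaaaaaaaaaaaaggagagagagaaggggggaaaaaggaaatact

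The motifs searched on both strands were the CRE (TGACGTCA), its core (TGACG, which also matches inside a CRE), the AP-1 site (TGANTCA), an ETS site (CCGGAAG), the glucocorticoid response element and the CArG box. The full CRE of Dusp1 lies 143 to 136 bases before the start and was found in 1.55% of 32851 RefSeq promoter windows of the same length. The separate core of Dusp1 lies 191 to 187 bases before the start, and cores were found in 17.8% of windows. The CArG boxes of Dusp5 span bases 82 to 73 and 72 to 63 before the start, and the box was found in 1.47% of windows. The CRE core of Dusp5 lies at 55 to 51. The AP-1, ETS and glucocorticoid motifs were found in 6.75%, 6.91% and 0.387% of windows and in none of these 7. No motif was matched in Spry1, Spry2, Dusp2, Dusp6 or Dusp10, which says only that these letters are not in their windows.

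**Figure D2:**
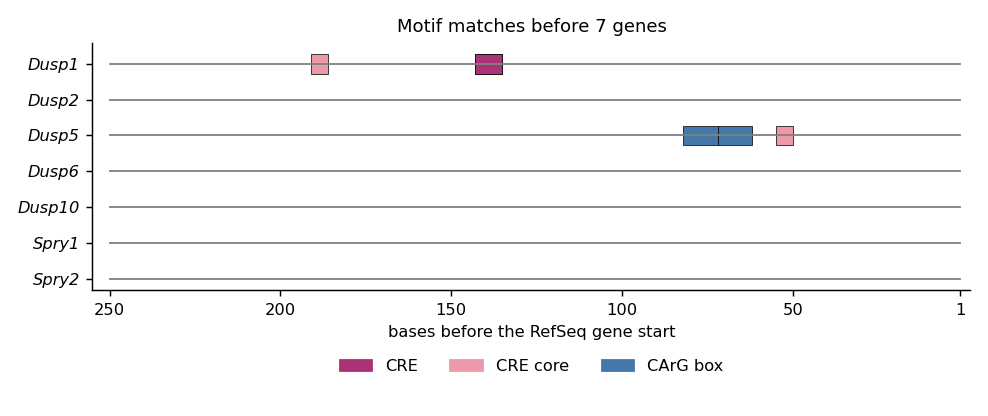
Positions of the motif matches (coloured marks) along the 250 bases before the RefSeq start of the 7 genes with an entry, 1 row per gene, with the distance from the start in bases on the horizontal axis. Matches were found in Dusp1 and Dusp5.

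The Sprouty genes come first because they act highest in the pathway. Spry2, an antagonist of signalling from FGF receptors, measured 89.0, 67.1 and 52.4 FPKM in replicates 1, 2 and 3 of 3 months. It measured 37.5, 27.5 and 19.3 FPKM in replicates 1, 2 and 3 of 19 months, and 17.3, 34.7 and 25.6 FPKM in replicates 2, 3 and 4 of 24 months. Every library of the older ages lay below every 3-month library, and the older ages overlapped. Spry2 fell by 1.29 ± 0.26 on the log2 scale at 19 against 3 months (adjusted p = 0.0182, and 0.171 in the fit of all rows). At 24 against 3 months it fell by 1.41 ± 0.26 (adjusted p = 0.00906, and 0.0943 in the fit of all rows). Both comparisons share the 3-month libraries. Between 24 and 19 months the log2 change was -0.12 ± 0.26 (adjusted p = 0.902). The call at 24 against 3 months held in the protein-coding fit without any 1 of the 9 libraries, with a highest adjusted p of 0.0438. At 19 against 3 months the call was lost without 3-month replicate 1 (0.111) or 2 (0.0736), or without 19-month replicate 2 (0.0549) or 3 (0.0809), and with a robust prior variance (0.0680).

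Spry1, a second inhibitor of receptor tyrosine kinase signalling known from kidney and muscle stem cells, was steady at 12.3, 12.6 and 11.8 FPKM in the 3-month libraries. It stood at 8.28, 7.24 and 6.34 FPKM in the 19-month libraries and at 14.2, 13.8 and 21.1 FPKM in the 24-month libraries. The 3 ages did not overlap at any point, with 19 months lowest, 3 months between and 24 months highest. Spry1 rose by 1.05 ± 0.17 on the log2 scale from 19 to 24 months (adjusted p = 0.0108, and 0.125 in the fit of all rows), a ratio of mean FPKM of 2.24. That call was lost without 19-month replicate 2 (0.0629) or 3 (0.0649) or 24-month replicate 4 (0.0609). The change at 19 against 3 months was -0.68 ± 0.17 (adjusted p = 0.0648), and at 24 against 3 months it was 0.37 ± 0.17 (adjusted p = 0.231).

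Spry4, a Sprouty induced by FGF and ERK in many embryonic tissues, was low. It measured 1.77, 0.980 and 0.833 FPKM at 3 months, 0.491, 0.289 and 0.231 FPKM at 19 months and 0.813, 0.718 and 1.04 FPKM at 24 months. As with Spry1, each 19-month library lay below every library of the other ages, while 3 and 24 months overlapped. Too few libraries reached 1 FPKM for Spry4 to enter either fit. With the minimum lowered to 0.5 FPKM in the protein-coding fit, its log2 change was -0.70 at 19 against 3 months (adjusted p = 0.0818) and 0.48 at 24 against 19 months (adjusted p = 0.292), so neither passed.

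Among the phosphatases, Dusp1 stood out at 24 months. Dusp1 is a nuclear phosphatase of p38, JNK and ERK whose transcript appears within minutes of growth factor or stress signals. It measured 38.2, 30.6 and 25.9 FPKM in replicates 1, 2 and 3 of 3 months. At 19 months it measured 43.0, 19.6 and 26.8 FPKM in replicates 1, 2 and 3, and at 24 months 72.9, 68.7 and 62.5 FPKM in replicates 2, 3 and 4. All 24-month libraries were above all 6 younger ones, and the 2 younger ages overlapped. Dusp1 rose by 1.10 ± 0.22 on the log2 scale at 24 against 3 months (adjusted p = 0.0131, and 0.104 in the fit of all rows) and by 1.23 ± 0.22 at 24 against 19 months (adjusted p = 0.0186, and 0.225 in the fit of all rows). These comparisons share the 24-month libraries. The ratios of mean FPKM were 2.16 and 2.28. The first call was lost without 3-month replicate 2 (0.0609) or 3 (0.0526), and the second without 19-month replicate 2 (0.0785) or 3 (0.0649) or 24-month replicate 3 (0.0541) or 4 (0.0609). At 19 against 3 months the change was -0.13 ± 0.22 (adjusted p = 0.808).

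Dusp1 overlaps Ergic1, a gene of early secretory transport on the opposite strand, and the sources used here do not say whether the quantification used strand. In the GENCODE M21 annotation 11 of the 3311 exon bases of Dusp1 were also exon bases of Ergic1. Ergic1 itself measured 17.5 to 21.5 FPKM at 24 months and 19.2 to 27.6 FPKM at 3 months, with a log2 change of -0.27 (adjusted p = 0.341).

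Dusp6, a cytoplasmic phosphatase specific for ERK and a standard readout of FGF signalling, measured 41.3, 46.7 and 26.2 FPKM at 3 months. The 19-month libraries measured 34.1, 14.1 and 16.9 FPKM and the 24-month libraries 47.5, 68.8 and 41.9 FPKM. The 24-month libraries were all above the 19-month ones, and 3 months overlapped with both. Dusp6 rose by 1.31 ± 0.28 on the log2 scale from 19 to 24 months (adjusted p = 0.0403, and 0.282 in the fit of all rows). Of the 6 calls among the members this one was lost most often: it held in 3 of the 9 fits that left out 1 library, with a highest adjusted p of 0.177 without 19-month replicate 2, and was lost with quantile normalisation (0.0635) and with a robust prior variance (0.152). It was lost without 19-month replicate 3 (0.149), 24-month replicate 2 (0.0501), 3 (0.150) or 4 (0.0914) and 3-month replicate 2 (0.0538) as well. At 19 against 3 months the log2 change was -0.84 ± 0.28 (adjusted p = 0.149). That change passed in 1 of the 9 fits that left out 1 library. This was the fit without 19-month replicate 1, the highest Dusp6 library of its age, at -1.21 (adjusted p = 0.0153). Over the 9 fits it ranged from -1.21 to -0.60, with a highest adjusted p of 0.474 without 19-month replicate 2.

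Dusp5, a nuclear phosphatase specific for ERK, was near the bottom of the measurable range. It measured 0.0614, 0.342 and 0.101 FPKM at 3 months, 1.01, 0.404 and 1.02 FPKM at 19 months and 0.841, 0.483 and 1.56 FPKM at 24 months. All 6 older libraries lay above the 3-month ones, by a ratio of mean FPKM of 4.83 at 19 months and 5.72 at 24 months, and the older ages overlapped. Neither difference passed. The log2 change was 0.62 ± 0.23 against 3 months at 19 months (adjusted p = 0.205) and 0.72 ± 0.23 at 24 months (adjusted p = 0.0939). With a pseudocount of 0.1 in place of 1 the change at 19 months was 1.82 (adjusted p = 0.124), and the adjusted p at 24 months was 0.0623.

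Dusp10, which prefers p38 and JNK over ERK, measured 1.91, 3.26 and 1.95 FPKM at 3 months, 2.14, 1.71 and 2.46 FPKM at 19 months and 2.70, 3.29 and 4.02 FPKM at 24 months. The 24-month libraries were above the 19-month ones and overlapped those of 3 months. Its log2 change was 0.48 ± 0.20 at 24 against 19 months (adjusted p = 0.328) and did not pass in any comparison. Dusp4, an inducible nuclear phosphatase of ERK and JNK, did not exceed 0.122 FPKM and was listed at 0 in 19-month replicate 1 and 24-month replicate 3. Dusp2, best known from activated immune cells, did not exceed 0.0720 FPKM and was listed at 0 in 6 of the 9 libraries, all 3 of 19 months among them. Dusp2 and Dusp4 entered neither fit.

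Read as a group, the genes moved differently in each comparison, and a fit of all rows called none of them. Of the 9 genes 6 could be tested, the others being Dusp2, Dusp4 and Spry4, so counts below speak of those 6. Dusp5 entered the fits only through older libraries, so its part in the counts and medians against 3 months follows in part from the filter. The fit of all rows called 0 of 6 in each comparison, where it called 0.28%, 0.203% and 0.049% of all rows at 19 against 3, 24 against 3 and 24 against 19 months. An unadjusted p under 0.05 was reached in that fit by 4, 3 and 4 of the 6 genes, against 14%, 18.6% and 10.7% of all rows.

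The protein-coding fit called 1 of 6 at 19 against 3 months, Spry2, where it called 1.56% of protein-coding rows, 0.6% higher and 0.964% lower. At 24 against 3 months it called 2 of 6, Dusp1 higher and Spry2 lower, against 3.84% of rows, 1.5% higher and 2.34% lower. At 24 against 19 months it called 3 of 6, Dusp1, Dusp6 and Spry1, all higher, against 0.93% of rows, 0.712% higher and 0.217% lower. The median log2 change of the 6 genes was -0.41, 0.42 and 0.76 in the same order, while the median over all protein-coding rows lay between -0.02 and 0.01.

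Ranges that did not overlap can be counted for all 9 genes, but the shares beside them are over tested rows, which leave out Spry4. Among the 6 tested genes, those wholly above and wholly below numbered 1 and 2 at 19 against 3 months. They numbered 3 and 1 at 24 against 3 months and 4 and 0 at 24 against 19 months. At 19 against 3 months Dusp5 lay wholly above and Spry1, Spry2 and Spry4 wholly below, while 11% of tested protein-coding rows lay wholly above and 11.6% wholly below. At 24 against 3 months Dusp1, Dusp5 and Spry1 lay wholly above and Spry2 wholly below, against 10.6% and 12% of rows. At 24 against 19 months Dusp1, Dusp6, Dusp10, Spry1 and Spry4 lay wholly above and none wholly below, against 7.94% and 10.4% of rows. The first and last of these comparisons share the 19-month libraries, so a low level at 19 months enters both with opposite sign. Within 19 months, replicate 1 held the highest value of 5 of the 8 members not listed at 0 throughout that age, namely Dusp1, Dusp6, Spry1, Spry2 and Spry4, and replicate 3 that of Dusp4, Dusp5 and Dusp10. Over the tested protein-coding rows replicates 1, 2 and 3 were highest in 3836, 4240 and 3433 of 11509.

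**Figure D3:**
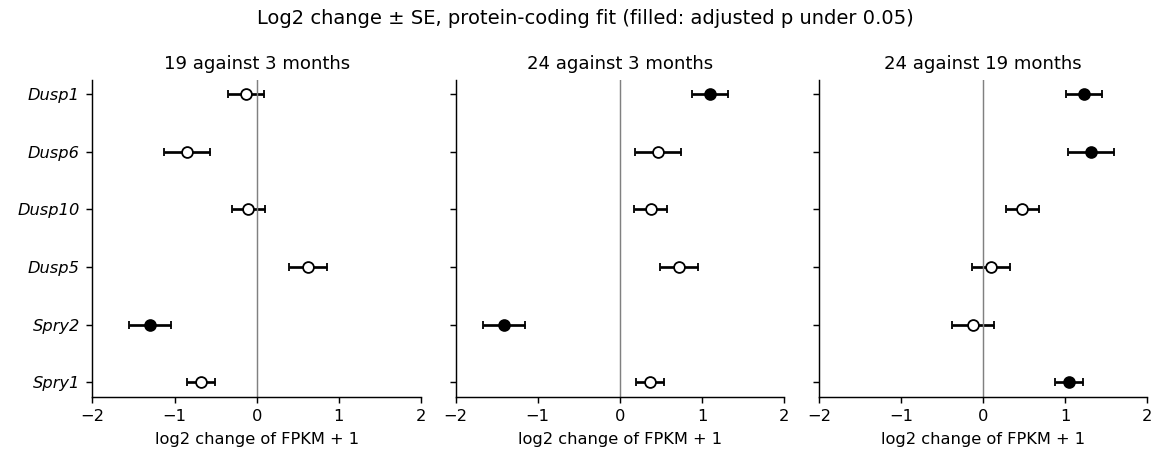
Log2 change of FPKM + 1 (horizontal axis) with its standard error in the protein-coding fit for the 6 tested genes in the 3 comparisons of age, with filled symbols for an adjusted p under 0.05. Spry2 is left of 0 against 3 months at both older ages, and Dusp1, Dusp6 and Spry1 are right of 0 at 24 against 19 months.

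Few genes passed in the rest of the pathway. The fit of all rows called 0 genes in each of the 8 lists described next, so the calls below are from the protein-coding fit. In that fit 15.7%, 21.6% and 12.8% of all rows had an unadjusted p under 0.05 at 19 against 3, 24 against 3 and 24 against 19 months, the background for the unadjusted counts given with each list. Of 12 other Dusp genes 0 passed in any comparison, with 2 at an unadjusted p under 0.05 in each. The largest changes were those of Dusp26 at 0.82 (19 against 3 months, adjusted p = 0.205) and 0.63 (24 against 3 months, adjusted p = 0.251). Dusp26 did not exceed 0.493 FPKM at 3 months and reached 1 FPKM only in older libraries. Its changes against 3 months thus follow in part from the filter. Dusp12 followed at 19 against 3 months with -0.45 (adjusted p = 0.274) and Dusp22 at 24 against 3 months with 0.37 (adjusted p = 0.0929), and Dusp7 and Dusp14 led at 24 against 19 months with 0.40 (adjusted p = 0.288) and 0.31 (adjusted p = 0.350). Dusp7, like Dusp6 a cytoplasmic ERK phosphatase, measured 28.2 FPKM at 19 months and 37.6 at 24 months on average.

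Of 14 other feedback inhibitors 0 passed, and 4, 1 and 3 had an unadjusted p under 0.05 at 19 against 3, 24 against 3 and 24 against 19 months. Errfi1, which blocks the EGF receptor, had a log2 change of -1.02 ± 0.24 at 19 against 3 months (adjusted p = 0.0501), with 10.1, 9.21 and 7.59 FPKM at 3 months and 5.55, 2.29 and 4.46 at 19 months. Those ranges did not overlap. Lrig3, a transmembrane protein of a family that restrains growth factor receptors, had a log2 change of 0.66 ± 0.15 at 24 against 19 months (adjusted p = 0.0507). Rgs2, a regulator of G protein signalling, had 0.61 ± 0.17 at 24 against 3 months (adjusted p = 0.0538) and 0.70 ± 0.17 at 24 against 19 months (adjusted p = 0.0621).

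Of 10 receptors and 6 ligands 0 passed. An unadjusted p under 0.05 was reached by 3, 3 and 2 receptors and by 0, 1 and 1 ligands in the same order. The EGF receptor Egfr averaged 49.7 FPKM at 3 months and 30.4 at 24 months, a log2 change of -0.67 ± 0.18 (adjusted p = 0.0531), and the 24-month libraries, at 27.6 to 33.7 FPKM, lay below the 37.5 to 57.9 of 3 months. The log2 change at 19 against 3 months was -0.67 for the insulin-like growth factor receptor Igf1r (adjusted p = 0.114) and -0.61 for the neurotrophin receptor Ntrk2 (adjusted p = 0.176). At 24 against 19 months it was 0.66 for Ntrk2 (adjusted p = 0.190) and 0.45 for the insulin receptor Insr (adjusted p = 0.306). Among ligands, Epgn, an EGF receptor ligand, had the largest change, 0.73 ± 0.21 at 24 against 3 months (adjusted p = 0.0642). Fgf18, the FGF of the resting bulge, averaged 5.39, 6.42 and 5.45 FPKM at the 3 ages and its ranges overlapped throughout. The EGF receptor ligand Tgfa had a log2 change of -0.28 at 19 against 3 months (adjusted p = 0.554) and Fgf1 one of 0.26 at 24 against 19 months (adjusted p = 0.489).

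Of 20 genes from adapters to ERK 0 passed, with 2, 3 and 0 at an unadjusted p under 0.05 in the same order. Braf and the FGF receptor adapter Frs2 had the largest changes, -0.57 (adjusted p = 0.144) and -0.54 (adjusted p = 0.0969) at 24 against 3 months. Sos2 and Rras led at 24 against 19 months with 0.30 (adjusted p = 0.533) and 0.27 (adjusted p = 0.490). Of 14 genes of the p38, JNK and ERK5 branches, 1 passed: Mapk7, which encodes ERK5, fell by 1.09 ± 0.19 at 24 against 3 months (adjusted p = 0.00628, and 0.0545 in the fit of all rows), from a mean of 7.54 to 3.10 FPKM. That call held without any 1 of the 9 libraries. The p38 activators Map2k3 and Map2k6 had log2 changes of -0.24 at 19 against 3 months (adjusted p = 0.460) and 0.43 at 24 against 19 months (adjusted p = 0.328).

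**Figure D4:**
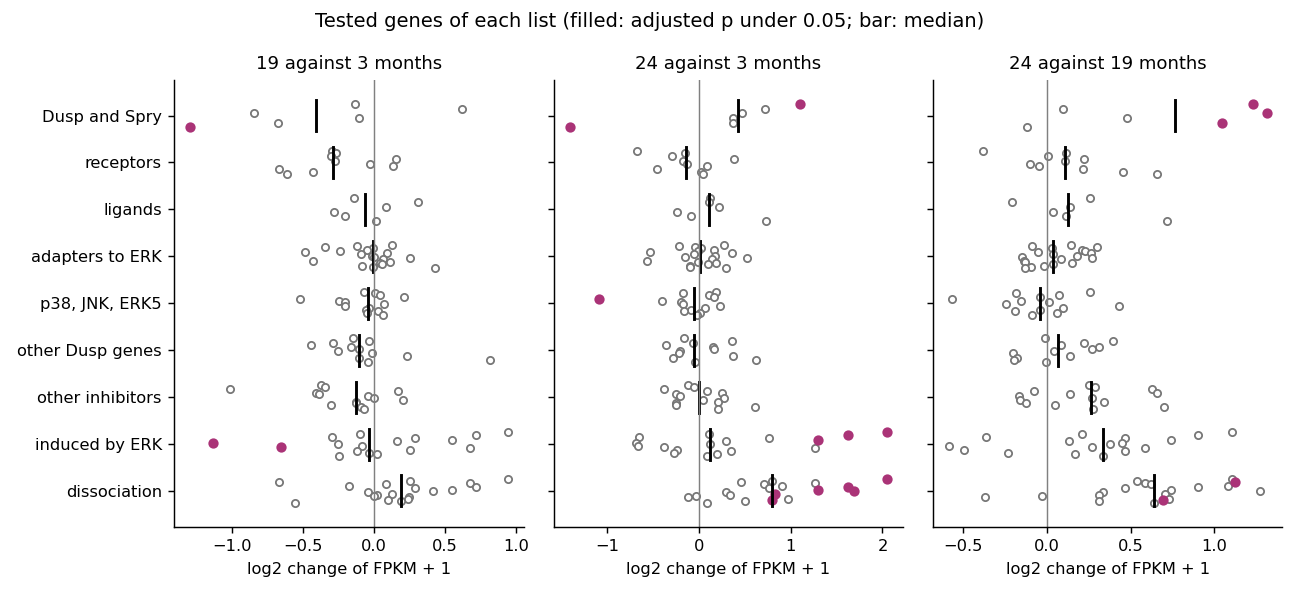
Log2 change of FPKM + 1 in the protein-coding fit (horizontal axis) of each tested gene among the members (top row) and in 8 lists of pathway and response genes (other rows), with 1 panel per comparison of age, a bar at each median and filled points for an adjusted p under 0.05. At 24 against 3 months 3 of 17 genes in the list of transcripts induced by ERK and 6 of 19 dissociation transcripts are filled, and 1 gene in the other 6 lists, Mapk7.

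The genes of a list of transcripts induced by ERK, 17 of them tested besides the 9 genes, split by comparison. That list also holds Elk1, Elk3 and Elk4, which are factors that ERK acts on rather than transcripts known to be induced. At 19 against 3 months 0 were higher and 2 lower: Ccnd1, the cyclin of G1 entry, fell by 0.66 ± 0.15 (adjusted p = 0.0433, and 0.162 in the fit of all rows), and Etv4, an ETS factor induced by FGF, fell by 1.13 ± 0.27 (adjusted p = 0.0465, and 0.205 in the fit of all rows). Etv4 measured 9.19, 5.79 and 6.56 FPKM at 3 months and 4.13, 3.34 and 1.22 FPKM at 19 months, with no overlap. The Ccnd1 call was lost without any 1 of the 6 libraries compared and the Etv4 call in 7 of the 9 fits that left out 1 library. Etv5, the close relative of Etv4, measured 11.6 to 13.9, 8.77 to 14.7 and 13.6 to 15.0 FPKM at the 3 ages. At 24 against 3 months 3 were higher and 0 lower, namely Egr1, Fos and Ier3, and at 24 against 19 months 0 passed, with 6 at an unadjusted p under 0.05.

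Those 3 are immediate-early genes, which also rise when skin is dissociated into single cells. Egr1, a zinc finger factor, rose by 1.63 ± 0.24 on the log2 scale at 24 against 3 months (adjusted p = 0.00337, and 0.0700 in the fit of all rows). Fos, a subunit of AP-1, rose by 2.05 ± 0.39 (adjusted p = 0.0104, and 0.113 in the fit of all rows), from a mean of 77.6 to 318.9 FPKM. Ier3, a stress and survival gene, rose by 1.30 ± 0.26 (adjusted p = 0.0131, and 0.116 in the fit of all rows), a call lost without 24-month replicate 2 (0.0513).

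Of 19 tested transcripts known to rise during tissue dissociation, 6 were higher and 0 lower at 24 against 3 months, where 1.5% of protein-coding rows were called higher. Besides those 3 they were the nuclear receptor Nr4a1 (1.69 ± 0.33, adjusted p = 0.0121), the antiproliferative gene Btg2 (0.80 ± 0.16, adjusted p = 0.0125) and the heat shock gene Hspa1b (0.83 ± 0.20, adjusted p = 0.0291), whose near-identical copy Hspa1a makes its value uncertain. The Hspa1b call was lost in 5 of the 9 fits that left out 1 library. At 24 against 19 months 2 were higher and 0 lower, Jun (1.12 ± 0.21, adjusted p = 0.0224) and Btg2 (0.70 ± 0.16, adjusted p = 0.0499), the second of which was lost in 8 of the 9 such fits and the first in 4. At 19 against 3 months 0 passed, with 5 at an unadjusted p under 0.05.

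This list is given beside Dusp1 because both had their highest levels at 24 months. It was thus set there with the values known, so the likeness is no separate evidence. Its summed level was 805 to 1106 FPKM at 3 months, 910 to 1406 FPKM at 19 months and 1289 to 2006 FPKM at 24 months. The sums of 19 and 24 months overlapped. Of its 19 genes 17 had a log2 change above 0 at 24 against 3 months, with a median of 0.79. Hspa8 and Dnajb1 lay below 0. The median over all protein-coding rows in that comparison was -0.004. Dusp1 itself is an immediate-early gene. Within 19 months, replicate 1, the highest library of that age for Dusp1, was also the highest for 14 of the 19 listed genes. Replicate 2 was highest for 2 and replicate 3 for 3. Over all tested protein-coding rows replicate 1 was highest in 3836 of 11509. Spry2 was lower at both older ages than at 3 months, and within 19 months replicate 1 was its highest library as well. The part of the dissociation response in the levels of Dusp1, Dusp6, Spry1 and Spry2 was not tested.

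**Figure D5:**
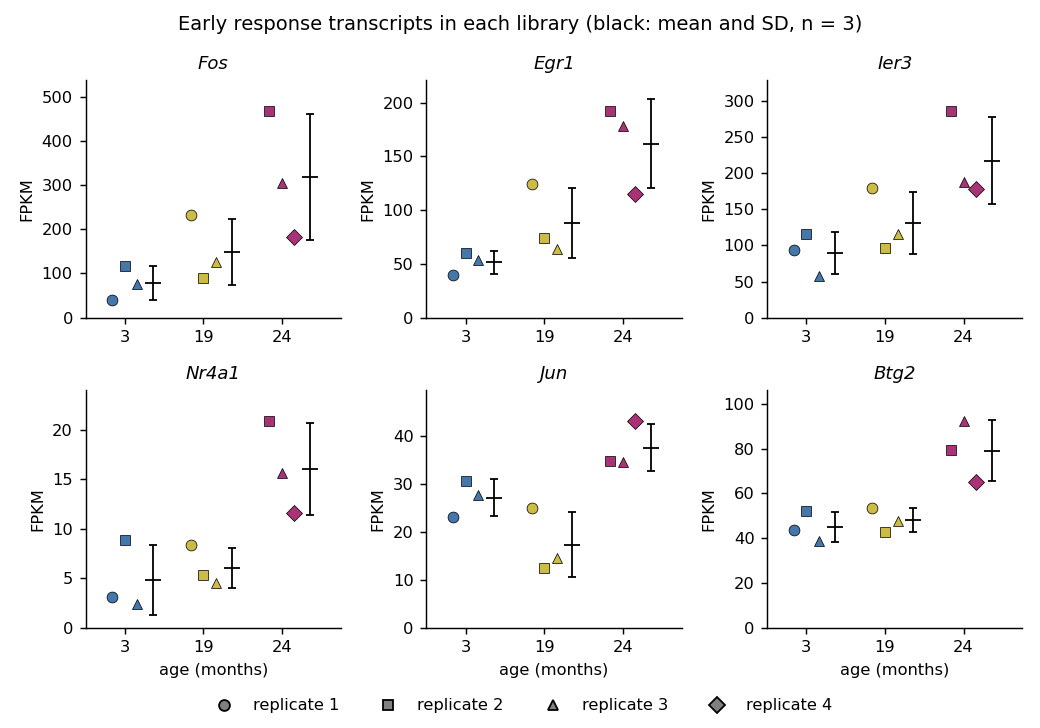
FPKM (vertical axis, linear) by age in months of Fos, Egr1, Ier3, Nr4a1, Jun and Btg2, all of which passed in a comparison, with 1 symbol per library shaped by its replicate number and black bars for the mean and SD over 3 libraries. Within 19 months replicate 1 was the highest library for each of them.

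For Dusp1, Dusp6 and Spry2, the 3 genes whose levels lay closest over the 9 libraries were found by Pearson's r on log2(FPKM + 1) among tested protein-coding rows other than the members. This is a description of shared pattern in libraries that share their ages, with no test. Spry2 was most like Wtap (r = 0.990), a subunit of the RNA m6A methyltransferase complex, Rbm15 (r = 0.982), which recruits that complex to RNA, and Sod1 (r = 0.967), the cytosolic superoxide dismutase. Wtap measured 53.9 to 80.9 FPKM at 3 months, 23.4 to 37.1 at 19 months and 17.9 to 34.7 at 24 months. Rbm15 measured 7.50 to 9.28 FPKM at 3 months and no more than 5.90 in any older library. Both thus stood higher in every 3-month library than in any older one, as Spry2 did.

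Dusp1 was most like Gm12886 (r = 0.944), Cdkn1c (r = 0.944), the CDK inhibitor p57, and Krt7 (r = 0.941), a keratin of simple epithelia. Gm12886 measured 0.102 to 0.321 FPKM at 3 months, 0 to 0.699 at 19 months and 1.74 to 2.59 at 24 months. It entered the tested rows only through 24 months, where Dusp1 was also highest, so its rank follows in part from the filter. Cdkn1c measured 2.68 to 3.95 FPKM at 3 months, 2.40 to 5.40 at 19 months and 6.26 to 8.60 at 24 months. Dusp6 was most like Adat1 (r = 0.942), a tRNA adenosine deaminase, Plscr4 (r = 0.930), a phospholipid scramblase, and Cd68 (r = 0.924), a lysosomal protein of macrophages. Cd68 measured 4.88 to 6.89, 3.92 to 7.40 and 6.33 to 9.06 FPKM at the 3 ages, and these ranges overlapped.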

How the data were processed

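Gene expression was read from 1 deposited table of FPKM values for 37980 rows and 9 libraries. The authors made the FPKM with TopHat and Cuffdiff on the build NCBIM37, per the submitters' processing notes, with no versions or settings given there. Depth is unknown, so no counting interval is given, and an exact 0 can be a failed estimate. The sum of FPKM over protein-coding rows ranged from 553388 to 738569. limma 3.58.1 (R 4.3.3, mean-dependent prior variance, two-sided) was fitted to log2(FPKM + 1) in a single model of the 9 libraries, for rows that reached 1 FPKM in 3 or more of them, 14275 in all. A second fit held the 11509 protein-coding rows, by GENCODE M21 identifiers (32916 of 37980 rows matched), without rows listed at 0 in every library of an age and at 5 FPKM or more in another. The members, lists and fits were chosen with earlier results of these data known, the protein-coding fit being known to call more genes. Named were all 9 members, up to 6 genes per list and comparison that passed 0.05, or, where none passed, the 2 with the largest change, and the 3 genes of most similar pattern. Genes set beside these for their level were chosen after their values were seen. Alternatives changed the normalisation, pseudocount, filter, prior and replicate block, and left out each library in turn. Same-numbered libraries of different ages correlated in their deviations at -0.197 to 0.187 and differently numbered ones at -0.23 to 0.164. With so few libraries this cannot decide whether the numbers pair them, and the main fits used no pairing.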

Additional observations from a re-analysis of the deposited data

How the results depend on the processing

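The members' calls depended on which rows were tested. With all rows, 0 members were called in each comparison, also without any 1 library; the protein-coding rows gave 1, 2 and 3 at 19 against 3, 24 against 3 and 24 against 19 months, and a robust prior variance on all rows gave 1 at 24 against 19 months (Spry1, adjusted p = 0.0456). The protein-coding rows with a replicate block gave 2, 2 and 3, the added call being Spry1 at 19 against 3 months (adjusted p = 0.0367). In the protein-coding fit the count at 19 against 3 months was 0 with a robust prior variance and 2 after scaling by the protein-coding sum, which moves the median gene by -0.11 in both comparisons with 3 months; leaving out 1 library gave 0 to 2, 1 to 2 and 0 to 3 members. Deviations of same-numbered libraries correlated with both signs, and the block changed no other call of a member.

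Counts over the table moved more. All rows gave 40, 29 and 7 calls and the protein-coding rows 180, 442 and 107. With a robust prior variance all rows gave 72, 224 and 27, with a replicate block 9, 13 and 16, and the protein-coding rows with the block 253, 158 and 110. Without a filter on low values 22 rows were called at 19 against 3 months and 8 at 24 against 3 months. At 24 against 3 months a minimum of 5 FPKM gave 47 and scaling by the protein-coding sum 90, and without rows listed at 0 there were 0 calls both there and at 24 against 19 months. Quantile normalisation of the protein-coding rows gave 59 at 24 against 19 months. Leaving out 1 library gave 5 to 37, 4 to 41 and 7 to 20 calls in all rows and 46 to 231, 133 to 457 and 20 to 214 in the protein-coding rows. The causes were not tested.

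Some log2 changes that passed nowhere turned sign. Without 1 library, Dusp1 at 19 against 3 months ranged from -0.43 to 0.12 and Dusp10 from -0.20 to 0.076. At 24 against 19 months Dusp5 ranged from -0.077 to 0.28 and Spry2 from -0.35 to 0.13, and with a replicate block they were -0.10 and 0.073. Depth is unknown, so no limit of detection can be given for Dusp2 and Dusp4.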
